A study of Rattus norvegicus with 24 samples.

Results

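Dorsal root ganglia (DRG) of rats made neuropathic with vincristine were examined for genes whose response to morphine differed from the response in rats without vincristine. The quantity described is the vincristine by morphine interaction, which is the morphine minus saline difference in vincristine-treated rats minus the morphine minus saline difference in control rats, on the log2 scale. It rests on 16 of the 24 arrays of the series, those of the vincristine-morphine, vincristine-saline, saline-morphine and saline-saline rats, with 4 rats in each group. The other 8 arrays came from rats given oxycodone and entered only the estimate of the spread between rats and 1 further comparison at the end. All were male Sprague Dawley rats aged 3 months. Vincristine-treated rats had received vincristine (0.1 mg/kg/day) on 10 days before the second treatment, and control rats its saline vehicle. Morphine or saline was then given on 5 days, and the lumbar ganglia were removed on day 19. Each array carried total RNA of a single rat, so that all cells of the ganglion and of the tissue dissected with it were measured together.

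Vincristine binds tubulin and blocks microtubule assembly, which stops dividing cells and also disturbs axonal transport in sensory neurons, hence its painful neuropathy. The DRG holds the cell bodies of these neurons, wrapped by satellite glia and surrounded by Schwann cells, fibroblasts, vessels and macrophages. Morphine acts mainly through the mu-opioid receptor, a receptor coupled to inhibitory G proteins that is found on part of the nociceptors. An interaction above 0 means that the morphine value, relative to saline, stood higher in vincristine-treated than in control rats, and an interaction below 0 that it stood lower. It does not tell which arm differed, and each gene below is therefore given with its values in both arms.

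The array, an Illumina bead array for the rat, held 22517 probes. A probe counted as detected at a detection p of 0.0005 or less, and the 7043 probes detected on 4 or more of the 24 arrays were tested. A gene name was known for 5499 of them, which stood for 5435 genes. Between 6112 and 6907 probes were detected per array, and the lowest value of a detected probe lay between 6.23 and 6.70 on the normalized log2 scale. Of 9 sensory neuron markers with a probe, 8 were detected on all 24 arrays, with Calca as the exception. The T cell genes Cd3d and Cd3e were detected on fewer than 4. Of 5 central nervous system markers, Aqp4, Mobp, Mog and Slc17a7 were also detected on fewer than 4, whereas Gfap was detected on all 24. The columns of the deposited table stand in 4 runs of 6 neighbours, called sets here, each with 1 array of every group. The 4 values of a group are given below in the order of the sets. Differences between sets made up 99.4% of the main axis of variation among the arrays, an axis with 43.3% of the variance. The sources used here do not say what distinguishes the sets.

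No gene had an interaction that passed the test. With limma, 0 of 7043 probes (0%) reached an adjusted p under 0.05, the smallest adjusted p being 1 after rounding. At an unadjusted p under 0.05 there were 80 probes (1.14%), 36 above 0 and 44 below 0, which carried 63 named genes, 28 above and 35 below. The two-way analysis of variance named in the study's methods, run gene by gene on the 16 arrays, gave 0 probes after adjustment and 97 without. A fit that took the set as a block had 0 probes (0%) past the adjusted threshold and 274 (3.89%) at an unadjusted p under 0.05, 139 above 0 and 135 below 0, all 80 of the first fit among them. Both unadjusted shares lie below what a threshold of 0.05 gives without any difference. The genes named in the next paragraphs are thus those with the smallest p of a comparison in which no gene passed, and their values are a description of these 16 rats.

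The precision of this comparison was limited by 4 rats per group. The median standard error (SE) of an interaction was 0.167, as compared to 0.118 for the morphine difference in a single arm, and the 95% confidence interval extended by a median of 0.348 to either side (0.246 with the set block). Without the block the differences between sets count as spread, and with it the median SE of an interaction was 0.117. Over the 5435 genes the interaction ran between -0.23 and 0.22 from the 5th to the 95th percentile, with a median of -0.0036. The single arms had 0 probes past an adjusted p of 0.05 with limma, while 128 probes (1.82%) had an unadjusted p under 0.05 in vincristine-treated rats and 147 (2.09%) in control rats. Across genes, which are not independent replicates, the morphine differences of both arms correlated with r = 0.155, and the arms share no array.

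**Figure D1:**
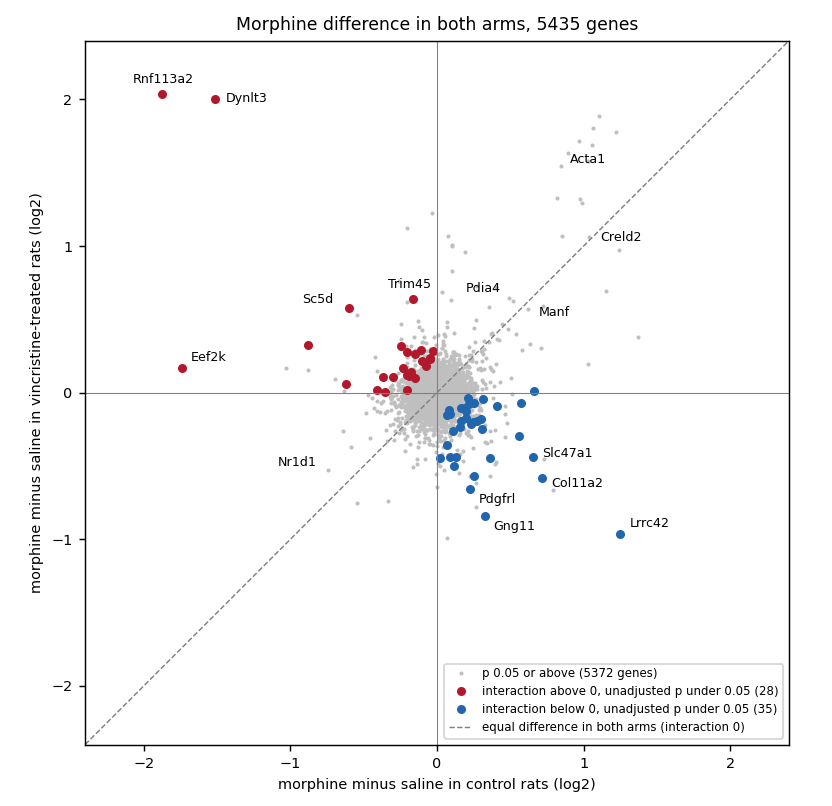
Morphine minus saline difference (log2) of 5435 genes in vincristine-treated rats (vertical axis) against control rats (horizontal axis), with the 28 genes above 0 and the 35 below 0 at an unadjusted p under 0.05 in colour. Distance from the dashed line is the interaction: Rnf113a2 and Dynlt3 lie far above it and Lrrc42 far below, whereas Creld2 lies on it at about +1 in both arms.

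Among the 63 genes, the arms had differences of opposite sign, each larger than its SE, in 37. Only the vincristine arm was past its SE in 13 and only the control arm in 13. A small p of the interaction needs arms that lie apart, so this split follows in large part from how the genes were chosen. The interaction was smaller than 0.5 in size in 40 genes and at least 1 in 9. Not 1 of the 5435 genes had its 4 morphine arrays fully apart from the 4 saline arrays in both arms and in opposite directions. Within a single arm they were fully apart in 1.12% of all genes for vincristine-treated rats and in 1.29% for control rats. Groups without overlap in 1 arm, as given for single genes below, are to be read beside these shares.

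The 4 of these genes with the widest interactions had arrays at separate high and low levels. Rnf113a2, related to the human RING finger protein RNF113A of the splicing machinery, had the smallest p. Its values were 4.48, 7.79, 6.79 and 6.92 in vincristine-morphine rats, against 4.48, 4.37, 4.54 and 4.43 in vincristine-saline rats, none of which was detected. They were 4.69, 4.57, 4.49 and 7.21 in saline-morphine rats, against 6.91, 7.72, 6.87 and 6.96 in saline-saline rats. High values were thus found in 3 of 4 vincristine-morphine, 0 of 4 vincristine-saline, 1 of 4 saline-morphine and 4 of 4 saline-saline rats, and the groups overlapped in both arms. The fitted interaction was +3.91 (limma unadjusted p = 0.000376, and 0.000467 with the set block). It was computed in part from arrays on which the probe was not detected, 1 of 4 vincristine-morphine, 4 of 4 vincristine-saline and 3 of 4 saline-morphine. Its size is therefore not a measured difference. Among saline-treated rats, the signal of vincristine-saline rats was at least 1.52-fold lower than that of saline-saline rats, a bound set by the detection limit.

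Dynlt3, a light chain of the dynein motor that carries cargo along microtubules towards the cell body, showed the same kind of split. It had values of 11.94, 11.53, 11.72 and 11.64 in vincristine-morphine rats, against 11.98, 7.43, 11.64 and 7.76 in vincristine-saline rats. In saline-morphine rats they were 9.38, 11.52, 8.41 and 11.43, against 11.72, 11.60, 11.74 and 11.74 in saline-saline rats. The low arrays were 2 of 4 vincristine-saline and 2 of 4 saline-morphine rats, and in control rats all morphine arrays lay below all saline arrays. The interaction was +3.52 (SE 1.10, limma unadjusted p = 0.00444).

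Eef2k, the kinase that phosphorylates elongation factor 2 and thereby slows translation, had 8.55, 8.75, 8.59 and 8.88 in vincristine-morphine rats, against 8.51, 6.44, 9.51 and 9.63 in vincristine-saline rats. It had 6.96, 8.92, 6.99 and 6.65 in saline-morphine rats, against 8.58, 8.83, 9.56 and 9.52 in saline-saline rats. Low values were confined, among these 16 arrays, to 3 saline-morphine rats and 1 vincristine-saline rat, and the interaction of +1.91 (SE 0.801, limma unadjusted p = 0.0266) came almost wholly from the control arm (-1.74, against +0.17 in vincristine-treated rats). Lrrc42, a leucine-rich repeat protein, went the other way, with an interaction of -2.22 (SE 0.926) and values of 7.91, 5.77, 6.09 and 7.79 in vincristine-morphine rats, 6.76, 7.96, 8.87 and 7.83 in vincristine-saline rats, 8.66, 8.08, 7.93 and 7.88 in saline-morphine rats and 6.79, 5.93, 6.13 and 8.68 in saline-saline rats. Its low arrays, at 6.79 or less, were 2 vincristine-morphine, 1 vincristine-saline, 0 saline-morphine and 3 saline-saline rats, and the groups overlapped in both arms. By a rule chosen after these values were seen (a gap of at least 0.75 between neighbouring values, with at least 4 arrays on either side), 125 of the 7043 probes (1.77%) had such a split, among them 10 of the 29 probes with an interaction of at least 1 in size and 5 of the 80. Lrrc42 and the genes not covered by the rule for named genes were likewise chosen after their values were seen.

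**Figure D2:**
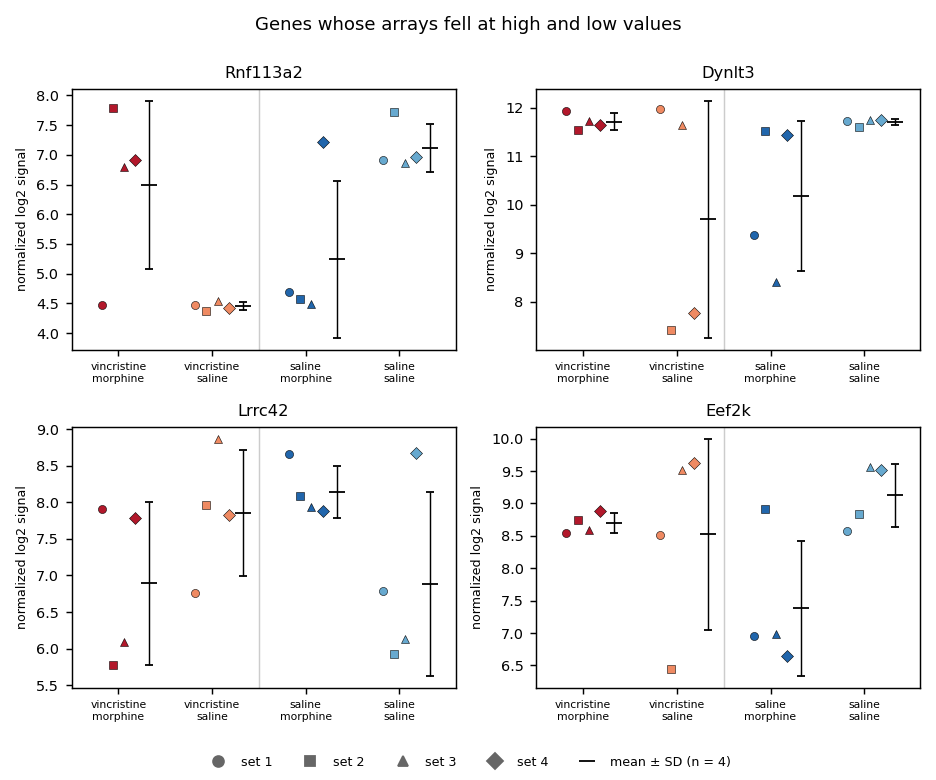
Normalized log2 signal of Rnf113a2, Dynlt3, Lrrc42 and Eef2k on each of 16 arrays, by group, with symbols for the 4 sets and bars for the mean ± SD (n = 4). The points gather at high and low levels, as for Rnf113a2, where the 4 vincristine-saline rats lay between 4.37 and 4.54 and the 4 saline-saline rats between 6.87 and 7.72.

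Among genes with graded values, Arglu1, a splicing factor and coactivator of nuclear receptors, had the smallest p on the positive side. Its values were 7.36, 7.36, 7.39 and 7.23 in vincristine-morphine rats, against 7.32, 7.23, 7.19 and 7.18 in vincristine-saline rats. They were 7.24, 6.79, 7.05 and 7.0 in saline-morphine rats, against 7.33, 7.45, 7.43 and 7.33 in saline-saline rats. In control rats every morphine array lay below every saline array, whereas in vincristine-treated rats the groups overlapped and the morphine arrays were the higher ones in all 4 sets. The morphine differences were +0.11 in vincristine-treated and -0.37 in control rats (SE 0.0905 each), with an interaction of +0.47 (SE 0.128, limma unadjusted p = 0.0014), a 1.39-fold ratio of ratios.

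Slc6a8, the creatine transporter of the cell membrane, followed this pattern at a smaller size. It had 9.31, 9.32, 9.34 and 9.14 in vincristine-morphine rats, against 9.20, 9.07, 9.21 and 9.14 in vincristine-saline rats. It had 9.15, 9.17, 9.08 and 9.12 in saline-morphine rats, against 9.37, 9.28, 9.23 and 9.43 in saline-saline rats. The control groups did not overlap, the vincristine groups did, and the interaction was +0.32 (SE 0.10, limma unadjusted p = 0.00429). Akr1c19, an aldo-keto reductase, also had morphine arrays below all saline arrays in control rats (9.21, 9.11, 9.02 and 9.01 against 9.48, 9.50, 9.54 and 9.47), whereas its vincristine groups overlapped, at 9.07, 9.47, 9.39 and 9.40 for vincristine-morphine and 9.43, 9.16, 9.15 and 9.52 for vincristine-saline. Its interaction was +0.43 (SE 0.138).

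Sc5d, the sterol desaturase of late cholesterol synthesis, had 9.58, 9.16, 9.13 and 9.33 in vincristine-morphine rats, against 8.61, 9.18, 8.72 and 8.37 in vincristine-saline rats. It had 8.49, 9.33, 8.44 and 8.58 in saline-morphine rats, against 9.48, 9.31, 8.57 and 9.86 in saline-saline rats. The set 2 arrays of all 4 groups were alike and the groups overlapped, so that the interaction of +1.18 (SE 0.363) rested on the other 3 sets. The arms were of nearly equal size and opposite sign (+0.58 and -0.60). Of 21 measured genes of cholesterol and isoprenoid synthesis, 13 were above 0 and 8 below (38.1%, against 51.4% of all genes), with a median of +0.079. The median was +0.05 without the vincristine-morphine array of set 3 and +0.14 without the saline-morphine array of set 1. Sc5d and Hsd17b7 (+0.32, SE 0.149), another enzyme of the same route, were the 2 of 21 members with an unadjusted p under 0.05, against 1.14% of all probes. Acot1, a thioesterase that releases fatty acids from coenzyme A, stood at +0.56 (SE 0.192), and Scd, which introduces the double bond of oleate, at +0.27 (SE 0.131).

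Cldn5, the claudin that seals endothelial tight junctions, had its arrays apart in the vincristine arm. It had 10.41, 10.53, 10.52 and 10.58 in vincristine-morphine rats, against 10.12, 10.39, 10.14 and 10.24 in vincristine-saline rats, with no overlap. It had 10.26, 10.20, 10.26 and 10.43 in saline-morphine rats, against 10.25, 10.56, 10.35 and 10.44 in saline-saline rats, which overlapped. The interaction was +0.40 (SE 0.166, limma unadjusted p = 0.0249). Trim45, a ubiquitin ligase of the tripartite motif family, had the same form with 8.58, 8.52, 8.64 and 8.83 in vincristine-morphine rats, against 7.97, 7.96, 7.69 and 8.39 in vincristine-saline rats, and overlapping control groups (8.47, 7.94, 7.90 and 8.91 in saline-morphine rats, 8.46, 8.71, 8.35 and 8.36 in saline-saline rats). Its interaction was +0.80 (SE 0.291). The remaining genes of the 12 smallest p on this side had interactions of +0.68 (Lpar4, a receptor for lysophosphatidic acid, detected in 0 of 4 saline-morphine rats), +0.41 (Clcc1, a chloride channel of the endoplasmic reticulum), +0.40 (Fam135a) and +0.22 (Galnt11, which starts mucin-type O-glycans).

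**Figure D3:**
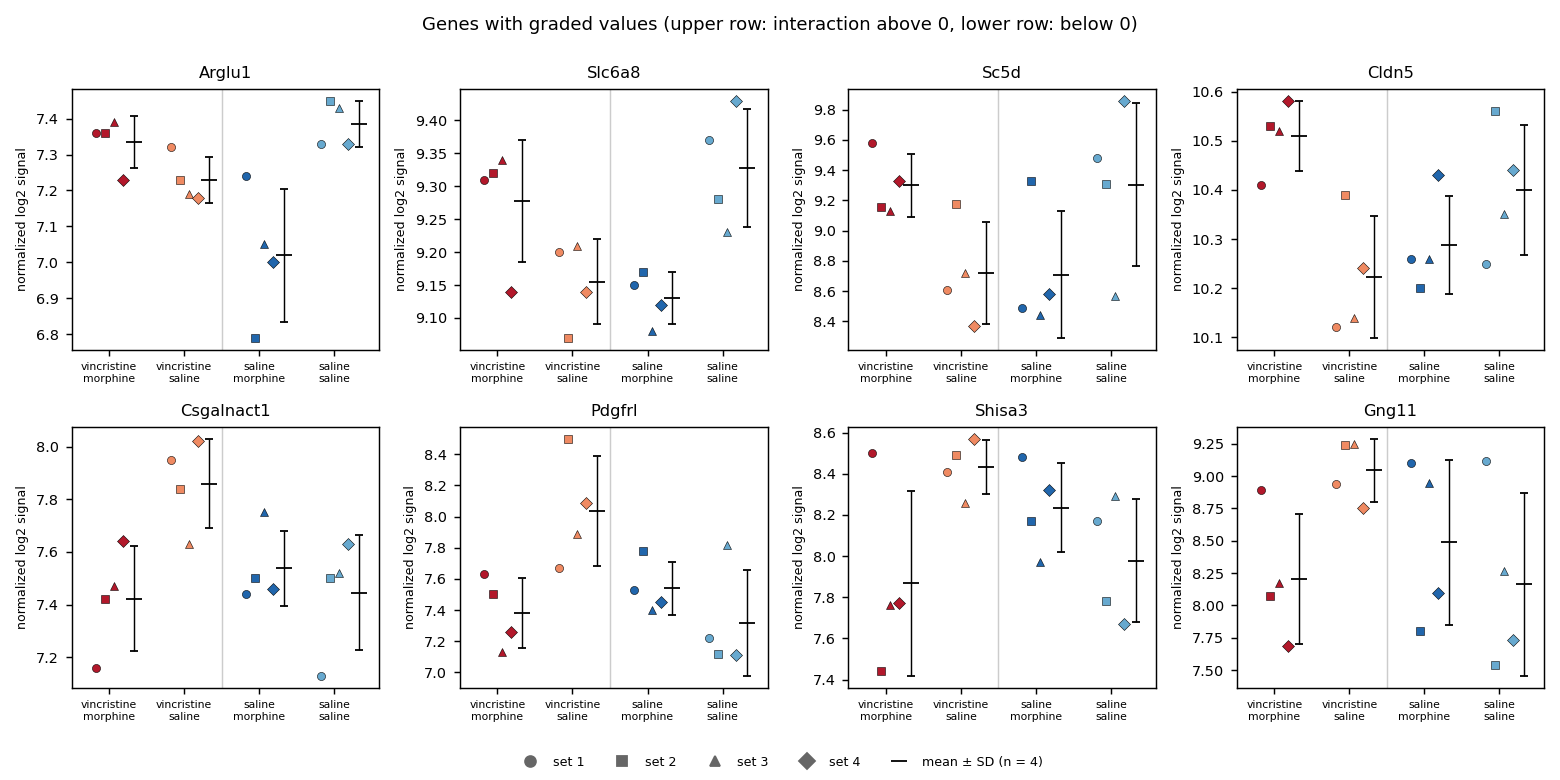
Normalized log2 signal of 8 genes with graded values on each of 16 arrays, by group, with symbols for the 4 sets and bars for the mean ± SD (n = 4). In the upper row (Arglu1, Slc6a8, Sc5d, Cldn5) morphine means lie above saline means in vincristine-treated rats and below them in control rats, and in the lower row (Csgalnact1, Pdgfrl, Shisa3, Gng11) the order is reversed.

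On the negative side, Csgalnact1, which starts chondroitin sulfate chains, had 7.16, 7.42, 7.47 and 7.64 in vincristine-morphine rats, against 7.95, 7.84, 7.63 and 8.02 in vincristine-saline rats. It had 7.44, 7.5, 7.75 and 7.46 in saline-morphine rats, against 7.13, 7.5, 7.52 and 7.63 in saline-saline rats. The vincristine-saline arrays were the high ones, the lowest of them lying just under the highest vincristine-morphine array, and the interaction was -0.53 (SE 0.173, limma unadjusted p = 0.00607).

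Pdgfrl, a receptor-like protein related to the platelet-derived growth factor receptors, had 7.63, 7.5, 7.13 and 7.26 in vincristine-morphine rats, against 7.67, 8.50, 7.89 and 8.09 in vincristine-saline rats. It had 7.53, 7.78, 7.40 and 7.45 in saline-morphine rats, against 7.22, 7.12, 7.82 and 7.11 in saline-saline rats. The vincristine groups did not overlap and the control groups did, with an interaction of -0.88 (SE 0.305). Olfml3, a secreted matrix protein, was of the same form, with 7.64, 7.86, 7.60 and 7.56 in vincristine-morphine rats, against 7.91, 8.22, 8.14 and 8.19 in vincristine-saline rats, an overlap in control rats and an interaction of -0.47 (SE 0.201).

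Shisa3, which dampens Wnt and fibroblast growth factor signalling, had 8.50, 7.44, 7.76 and 7.77 in vincristine-morphine rats, against 8.41, 8.49, 8.26 and 8.57 in vincristine-saline rats. It had 8.48, 8.17, 7.97 and 8.32 in saline-morphine rats, against 8.17, 7.78, 8.29 and 7.67 in saline-saline rats. A single vincristine-morphine array, that of set 1, stood with the saline arrays, and the interaction was -0.82 (SE 0.293). Gng11, a gamma subunit of G proteins, lay between 8.89 and 9.12 on the set 1 arrays of these 4 groups. Its values were 8.89, 8.07, 8.17 and 7.69 in vincristine-morphine rats, against 8.94, 9.24, 9.25 and 8.75 in vincristine-saline rats, and 9.10, 7.80, 8.95 and 8.10 in saline-morphine rats, against 9.12, 7.54, 8.27 and 7.73 in saline-saline rats. The interaction was -1.16 with an SE of 0.480 and an unadjusted p of 0.0243 in limma, and of 0.289 and 0.000765 with the set block.

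The other genes of the 12 smallest p on this side had interactions of -1.30 (Col11a2, a chain of collagen XI, detected on 11 arrays), -0.85 (Aen, a nuclease induced by p53), -0.61 (Rap1gds1, a chaperone of small GTPases, detected in 0 of 4 vincristine-morphine rats), -0.57 (Cyp26b1, which degrades retinoic acid), -0.48 (Klf2, a transcription factor of vessels and lymphocytes, detected on 7 arrays), -0.37 (Adprm), -0.35 (Pak1, a kinase of the actin cytoskeleton) and -0.32 (Pdk3, which inhibits pyruvate dehydrogenase). Rap1gds1 and Adprm had no overlap between morphine and saline arrays in the vincristine arm. Slc47a1, an exporter of organic cations, had control groups that did not overlap, with 8.15, 7.70, 7.47 and 7.53 in saline-morphine rats, all above the 6.83, 7.22, 7.41 and 6.77 in saline-saline rats. Its vincristine-morphine arrays, at 8.34, 7.75, 6.87 and 7.26, overlapped the vincristine-saline arrays, at 7.19, 8.44, 8.25 and 8.09, and the interaction was -1.09 (SE 0.457).

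Chaperone genes stood higher with morphine in both arms, and their interactions were near 0. Cells answer unfolded protein in the endoplasmic reticulum (ER) by raising the chaperones and folding enzymes of that compartment, and unfolded protein in the cytosol by raising the heat shock proteins. Of the ER list 18 of 24 genes were measured, and 17 of the 18 had a higher mean with morphine than with saline in both arms, against 25.8% of all genes. The median morphine difference was +0.24 in vincristine-treated rats and +0.25 in control rats, and the median interaction +0.01, with 9 members above 0 and 9 below. This median interaction was -0.01 with median centring and -0.06 with array quality weights. The mean level of the list was also high with oxycodone, at 9.84 in vincristine-treated and 9.82 in control rats. It was 9.88 and 9.87 with morphine and 9.59 and 9.58 with saline. The list was chosen with earlier results of these data known. The interactions ran from -0.20 (Herpud1, which takes part in degradation at the ER) to +0.11 (Pdia4, a disulfide isomerase), and none had an unadjusted p under 0.05.

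Creld2, a secreted ER stress protein, had 9.09, 8.87, 8.87 and 8.88 in vincristine-morphine rats, against 8.03, 8.10, 7.91 and 7.43 in vincristine-saline rats. It had 8.41, 9.08, 9.29 and 8.82 in saline-morphine rats, against 8.06, 7.71, 8.06 and 7.61 in saline-saline rats. All morphine arrays lay above all saline arrays in either arm. The differences were +1.06 in vincristine-treated and +1.04 in control rats (SE 0.203 each), or 2.08-fold and 2.05-fold, and the interaction was +0.02 (SE 0.287), with a 95% confidence interval of -0.58 to 0.62. In limma the arms had adjusted p of 0.261 and 0.336, and with the set block of 0.0468 and 0.0305.

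Hspa5, the main Hsp70 chaperone of the ER, had 13.04, 13.11, 12.89 and 13.10 in vincristine-morphine rats, against 12.49, 12.93, 12.41 and 12.45 in vincristine-saline rats. It had 12.64, 13.27, 13.06 and 12.99 in saline-morphine rats, against 12.49, 12.65, 12.55 and 12.51 in saline-saline rats. Each arm overlapped by 1 array, and the arms differed by +0.02 (SE 0.185) with morphine differences of +0.47 and +0.44. Dnajb1, which hands clients to cytosolic Hsp70, had 10.86, 11.06, 10.95 and 11.26 in vincristine-morphine rats, against 10.45, 10.86, 10.63 and 10.73 in vincristine-saline rats, and 10.92, 11.16, 11.28 and 11.19 in saline-morphine rats, against 10.59, 10.70, 10.81 and 10.81 in saline-saline rats. Its groups did not overlap in either arm, although the nearest vincristine arrays were equal after rounding. The interaction was -0.04 (SE 0.145), and its morphine difference in control rats (+0.41) had an adjusted p of 0.0305 in limma with the set block and of 0.540 without.

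Over all 5435 genes, 6 had every morphine array above every saline array in both arms (0.11%). They were Creld2, Dnajb1, Calr (calreticulin), Manf (a secreted ER factor), Stip1 (which joins Hsp70 to Hsp90) and Hspb1 (a small heat shock protein), all on the chaperone lists, with interactions between -0.18 and +0.03. Another 7 genes had every morphine array below every saline array in both arms: Mbip, Nr1d1, Scaf8, Zmym1, Cd48, Pde9a and Trem2. Nr1d1, a repressor of the circadian clock, was the one of these with the largest interaction, +0.22 (SE 0.259). Of the list of cytosolic and mitochondrial heat shock proteins, 14 of 22 were measured, 13 were higher with morphine in both arms, and the median interaction was -0.01.

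**Figure D4:**
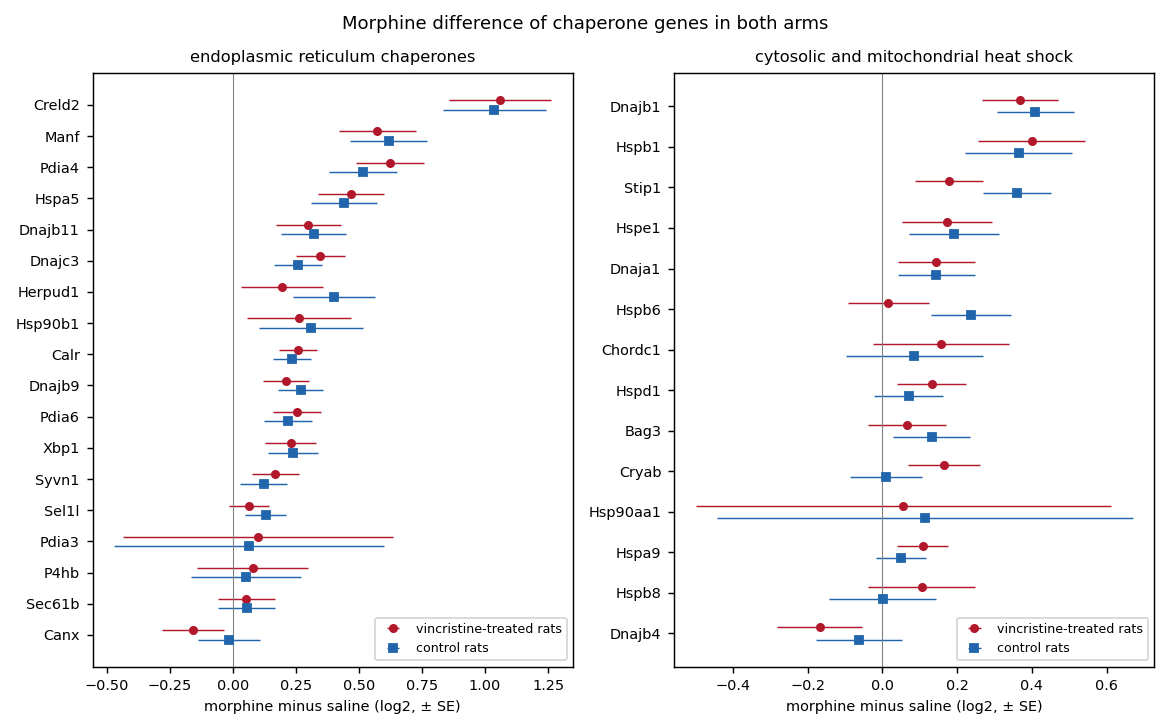
Morphine minus saline difference (log2, ± SE) of 18 ER chaperone genes and 14 heat shock genes in vincristine-treated rats (circles) and control rats (squares). The points of both arms lie within 1 SE of each other for 16 of the 18 ER genes and 11 of the 14 heat shock genes and reach about +1 for Creld2, with Stip1 and Hspb6 as the heat shock genes with the widest gap between arms.

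Creld2 and Hspa5 are known targets of the unfolded protein response, which acts through the ER stress response element (ccaat, 9 further bases, then ccacg), and their upstream sequences are shown to place this element beside the values. It was searched on both strands as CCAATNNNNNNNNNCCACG in the 250 bases before the start of each gene, in RefSeq sequences on the rat build GRCr8. Of the 18 measured ER genes, 15 had a sequence and 7 of these held the element: Calr, Canx, Creld2, Dnajc3, Hsp90b1, Hspa5 and Xbp1. Of all 33469 sequences 22 held it (0.066%), while CCAAT alone was in 34.0%. The match is a match of letters only, and Canx, which has it, was not higher with morphine in either arm (-0.16 and -0.02). In the following lines the capitals mark the element, which lies 145 bases before the start of Creld2 and is read on the opposite strand there (chr7:121789134-121789383, plus strand), and 43 bases before the start of Hspa5 (chr3:38452766-38453015, plus strand).
Creld2: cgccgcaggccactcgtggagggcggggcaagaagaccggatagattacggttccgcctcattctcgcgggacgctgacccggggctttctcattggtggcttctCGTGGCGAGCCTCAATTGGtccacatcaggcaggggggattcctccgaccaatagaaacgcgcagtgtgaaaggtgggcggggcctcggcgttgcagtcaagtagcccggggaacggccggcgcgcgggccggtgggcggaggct
Hspa5: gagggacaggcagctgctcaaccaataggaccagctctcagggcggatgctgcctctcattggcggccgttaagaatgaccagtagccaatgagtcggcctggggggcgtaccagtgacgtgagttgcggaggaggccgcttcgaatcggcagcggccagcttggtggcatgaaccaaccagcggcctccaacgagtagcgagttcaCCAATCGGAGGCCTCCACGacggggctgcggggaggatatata

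Lists of genes that mark cell types, pathways and neuronal function were compared by their counts and medians. In these bulk samples fewer cells of a type and less RNA per cell cannot be told apart. Of 26 lists with at least 10 measured members, 19 had a median interaction within 0.1 of 0. The lowest median was that of fibroblasts and matrix (-0.27), followed by macrophages and monocytes (-0.15), and the highest were those of skeletal muscle (+0.45), adipocytes (+0.22) and endothelial cells (+0.14). Over all lists, 9 of 564 measured members had an unadjusted p under 0.05, 5 above 0 and 4 below, which is 1.6%, near the 1.14% of all probes, and none passed after adjustment.

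Most fibroblast and matrix genes had an interaction below 0. Of 29 measured genes of 41, 25 had an interaction below 0 (86.2%), against 51.4% of all genes, and 6 were below 0 in each of the 4 sets (20.7%, against 6.81% of all genes). The median morphine difference was -0.18 in vincristine-treated and +0.05 in control rats. The mean level of the 29 genes was 9.40, 8.96, 8.97 and 9.08 in vincristine-morphine rats, against 9.45, 9.37, 9.08 and 9.20 in vincristine-saline rats. It was 9.48, 9.33, 9.35 and 9.15 in saline-morphine rats, against 9.44, 9.17, 9.40 and 9.0 in saline-saline rats. In every set the vincristine-morphine array was the lower of its arm, but the groups overlapped and the arrays of set 1 were high in all groups.

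No single member carried this. The interaction was -0.69 (SE 0.765) for Col3a1 (collagen III), -0.64 (SE 0.442) for Col8a1 (collagen VIII) and -0.27 (SE 0.144) for Col6a1 (collagen VI), and 0 of 29 members had an unadjusted p under 0.05. Dpt, the matrix protein dermatopontin, had 8.90, 8.19, 7.89 and 8.12 in vincristine-morphine rats, against 8.79, 8.66, 8.53 and 8.72 in vincristine-saline rats. It had 8.85, 8.80, 8.30 and 8.16 in saline-morphine rats, against 8.64, 8.30, 8.54 and 7.93 in saline-saline rats. Its groups overlapped in both arms, with an interaction of -0.58 (SE 0.311). With the set block Dpt (unadjusted p = 0.0442, limma) and Mfap5 of the microfibrils (-0.41, unadjusted p = 0.0224, limma) were the 2 of 29 members under 0.05. Over all probes the share under 0.05 with the set block was 3.89%. The list's median interaction was -0.18 without the vincristine-saline array of set 1. Without the 4 arrays high in muscle genes, described next, it was -0.16 and the median of the vincristine arm -0.05, with 75.9% of members below 0.

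Among the 16 arrays, skeletal muscle genes were high on 3 single arrays, all of them from morphine-treated rats. Of the 14 measured genes 13 had an interaction above 0 and 12 were higher with morphine in both arms. The mean level of the 14 measured genes of 37 was 6.70, 9.33, 7.14 and 9.24 in vincristine-morphine rats, against 7.55, 6.73, 7.13 and 6.83 in vincristine-saline rats. It was 6.69, 6.72, 6.84 and 9.61 in saline-morphine rats, against 6.5, 6.77, 6.86 and 7.21 in saline-saline rats. The arrays at 9.24 to 9.61 were thus 2 vincristine-morphine rats and 1 saline-morphine rat. The median interaction of the list ranged from -0.03, without the vincristine-morphine array of set 2, to +1.16, without the saline-morphine array of set 4. Of the 16 arrays, 4 had a mean above 7.5 and were left out together as an alternative, which left 2 vincristine-morphine rats, and the part of muscle RNA in the other results was not tested beyond that. Over all 24 arrays 6 were above 7.5 and left out, those of vincristine-oxycodone rats at 8.30 and 7.99 among them. The adipocyte genes were highest on the same 3 of the 16 arrays, with 8.09, 8.67, 7.82 and 8.36 in vincristine-morphine rats, against 8.17, 7.67, 7.73 and 7.89 in vincristine-saline rats, and 7.75, 7.67, 8.09 and 8.24 in saline-morphine rats, against 8.04, 7.75, 7.83 and 7.71 in saline-saline rats. Of the 10 measured adipocyte genes of 20, 9 were above 0, with a median of +0.11 without the muscle-high arrays. The defining marker Adipoq was detected on fewer than 4 arrays.

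**Figure D5:**
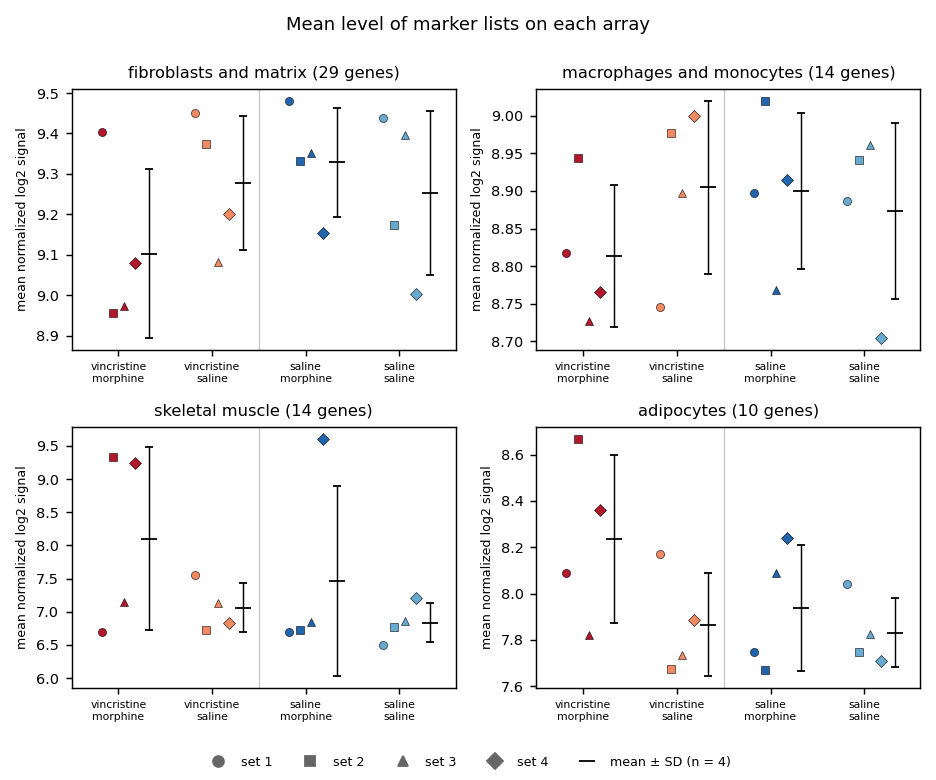
Mean normalized log2 signal of the fibroblast and matrix (29), macrophage (14), skeletal muscle (14) and adipocyte (10) genes on each of 16 arrays, by group, with symbols for the 4 sets and bars for the mean ± SD (n = 4). The muscle panel shows 3 arrays between 9.24 and 9.61 and all others at 7.55 or less, and in the fibroblast panel 3 of 4 vincristine-morphine arrays lie at 9.08 or less.

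Macrophage and monocyte genes were below 0 for 10 of 14 measured genes (71.4%), with a median of -0.15 (-0.05 without the saline-saline array of set 4 and -0.23 without the vincristine-morphine array of set 2). Cd14, the receptor for bacterial lipopolysaccharide, stood at -0.29 (SE 0.191), and Hmox1, haem oxygenase, at -0.28 (SE 0.217). Hmox1 had 7.88, 7.81, 7.59 and 7.84 in vincristine-morphine rats, against 7.33, 7.81, 7.34 and 7.49 in vincristine-saline rats, and 7.80, 8.58, 8.33 and 8.11 in saline-morphine rats, against 7.66, 7.68, 7.42 and 7.75 in saline-saline rats. It was thus higher with morphine in both arms (+0.29 and +0.58), without overlap in control rats. Of 10 endothelial and mural genes 7 were above 0, and 4 were above 0 in each of the 4 sets, against 5.78% of all genes. Cldn5 was the 1 of 10 members with an unadjusted p under 0.05, against 1.14% of all probes. The list's median of +0.14 was +0.01 without the muscle-high arrays and +0.05 without the saline-morphine array of set 1.

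Red cell genes were high in both vincristine groups, and such a difference cancels in the interaction. The mean level of the 17 measured genes of 41 lay between 9.91 and 10.57 in vincristine-morphine rats and between 9.72 and 10.44 in vincristine-saline rats, against 9.02 to 9.20 in saline-morphine rats and 9.01 to 9.41 in saline-saline rats. Alox15, a lipoxygenase of reticulocytes, had 9.94, 11.56, 10.38 and 10.74 in vincristine-morphine rats, against 9.84, 11.74, 9.35 and 9.91 in vincristine-saline rats, and was not detected in saline-morphine and saline-saline rats. It was at least 19.3-fold higher in vincristine-morphine than in saline-morphine rats and at least 13.7-fold higher in vincristine-saline than in saline-saline rats, bounds set by the detection limit. The vincristine-morphine arrays overlapped the vincristine-saline arrays, and no interaction is given, since the control arm was not detected. Of the 17 red cell genes 13 were above 0 with a median of +0.12, which was +0.08 without the vincristine-saline array of set 1 and +0.23 without the saline-saline array of set 3. Hbb, the beta chain of haemoglobin, stood at +0.32 (SE 0.301). Only 4 of 17 platelet genes were measured, of which 3 were below 0. They were Pf4 (platelet factor 4) at -1.18 (SE 0.819), Gng11, described above and also a gene of platelets, at -1.16, and Gp1bb at -0.13, with Vwf at +0.11. The median of -0.65 became +0.06 with array quality weights.

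Genes of the opioid system gave little to compare. The probe of Oprm1, the mu-opioid receptor, was detected on 0 arrays. Of the 8 opioid receptor and peptide genes 3 were measured: Oprl1, the nociceptin receptor, stood at +0.02 (SE 0.209), Pnoc, the nociceptin precursor, at -0.17 (SE 0.294) and Penk, proenkephalin, detected on 6 of 24 arrays and on 0 of 4 in vincristine-saline rats, at +0.03 (SE 0.292). Oprl1 had 7.80, 8.06, 8.20 and 8.18 in vincristine-morphine rats, against 7.90, 8.33, 8.02 and 8.15 in vincristine-saline rats, and 7.66, 8.17, 7.98 and 8.34 in saline-morphine rats, against 7.69, 8.25, 8.11 and 8.36 in saline-saline rats. The groups overlapped throughout. Of 20 measured genes of mu-opioid signalling, 9 were above 0 and 11 below, with a median of -0.05 (+0.02 with array quality weights, and +0.02 without the vincristine-morphine array of set 1), and the lowest was Prkce, a protein kinase C isoform of nociceptors, at -0.32 (SE 0.27).

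Of the GABA receptor subunits, 2 of 16 were measured. Gabbr2, a subunit of the GABA-B receptor, had 11.12, 11.17, 11.08 and 11.28 in vincristine-morphine rats, against 10.99, 11.22, 11.24 and 11.27 in vincristine-saline rats. It had 11.19, 11.08, 11.16 and 11.36 in saline-morphine rats, against 11.06, 11.21, 11.21 and 11.44 in saline-saline rats. All groups overlapped, and the interaction was +0.01 (SE 0.132, exact permutation p = 0.936, two-sided, n = 4 per group). Gabbr1, its partner, stood at -0.01 (SE 0.16). The probe of Gabrg1 was detected on 0 arrays.

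The medians of the sensory neuron lists lay close to 0. Of 15 genes of large-diameter neurons and neurofilaments 11 were above 0, with a median of +0.05 and a range of -0.10 to 0.13. Of 25 nociceptor and ion channel genes 14 were above 0, with a median of +0.01 and a range of -0.31 to 0.26. Of 12 sensory neuropeptide genes 8 were above 0, with a median of +0.05 and a range of -0.37 (Npy, SE 0.954) to 0.32 (Nmu, SE 0.228). Scn10a, the sodium channel of nociceptors, stood at +0.06 (SE 0.108), and Prph, peripherin, at 0.00 (SE 0.104). Trpa1, the irritant receptor, was the channel gene with no overlap in the vincristine arm (its nearest arrays differed only before rounding). It had 6.41, 6.75, 6.72 and 6.55 in vincristine-morphine rats, against 6.75, 6.94, 6.83 and 6.90 in vincristine-saline rats. These values lay near the lowest value of a detected probe (6.23 to 6.70 by array). Its control groups overlapped, and its interaction was -0.31 (SE 0.179). Calcb, a calcitonin gene-related peptide, had the opposite order, with 10.88, 11, 11.10 and 10.86 in vincristine-morphine rats, all above the 10.82, 10.79, 10.81 and 10.66 in vincristine-saline rats, an overlap in control rats and an interaction of +0.21 (SE 0.124). Over all genes, 1.12% had no overlap in the vincristine arm.

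Tubulins, the target of vincristine, and other microtubule proteins had 22 of 37 measured genes above 0, with a median of +0.03 (-0.05 with array quality weights, and between -0.04 and +0.06 with single arrays left out). Tubb6, a beta tubulin, had 8.05, 8.02, 7.87 and 8.20 in vincristine-morphine rats, against 8.15, 8.01, 7.87 and 7.81 in vincristine-saline rats. It had 8.20, 8.30, 8.30 and 8.26 in saline-morphine rats, all above the 7.99, 7.92, 7.93 and 7.76 in saline-saline rats. Only the control groups were apart, and the interaction was -0.29 (SE 0.15). Over all genes, 1.29% had no overlap in the control arm. Myelinating Schwann cell genes (10 of 13 above 0, median +0.03) and satellite glia genes (7 of 9 above 0, median +0.07) had no member with an unadjusted p under 0.05.

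Most measured genes of the integrated stress response and most immediate early genes had an interaction below 0, mostly of small size. Of 16 measured genes of the integrated stress response 12 were below 0 (75%), and of 12 immediate early genes 8 (66.7%), against 51.4% of all genes. The medians were -0.04 and -0.08. Like shares were found in other lists, with 74.3% for the proteasome and 75.9% for antioxidant and glutathione genes, whereas the ER chaperones were evenly split. Atf4, the transcription factor at the centre of the integrated stress response, had 9.78, 9.94, 9.65 and 9.94 in vincristine-morphine rats, against 9.79, 9.94, 9.87 and 9.88 in vincristine-saline rats. It had 9.89, 10.21, 10.04 and 10.12 in saline-morphine rats, against 9.75, 9.93, 9.86 and 9.87 in saline-saline rats. The vincristine groups overlapped, the saline-morphine arrays lay mostly above the saline-saline arrays, and the interaction was -0.25 (SE 0.108, limma unadjusted p = 0.0302).

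Junb, a subunit of the AP-1 transcription factor, had 7.41, 7.43, 7.03 and 7.65 in vincristine-morphine rats, against 7.37, 7.5, 7.62 and 7.89 in vincristine-saline rats, and 7.42, 7.67, 7.95 and 7.96 in saline-morphine rats, against 7.45, 7.32, 7.69 and 7.61 in saline-saline rats. Both arms overlapped, with an interaction of -0.45 (SE 0.199). Dusp6, the phosphatase that switches off ERK, stood at -0.36 (SE 0.164). Of 13 glucocorticoid-responsive genes 10 were below 0 (76.9%), with a median of -0.12 that turned to +0.03 with array quality weights and lay between -0.19 and -0.06 with single arrays left out. Fkbp5, a co-chaperone of the glucocorticoid receptor, stood at -0.27 (SE 0.397) with overlapping groups, and Nfil3, a clock repressor, at -0.41 (SE 0.226), with morphine differences of +0.30 in vincristine-treated and +0.71 in control rats.

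Large lists of basic cell function had medians near 0. They were -0.03 for 54 cytosolic ribosomal proteins (37 below 0), -0.03 for 51 genes of oxidative phosphorylation (33 below 0) and -0.04 for 35 proteasome genes (26 below 0). None of these lists had a member with an unadjusted p under 0.05 in limma.

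Whether the interaction was particular to morphine was asked by subtracting from it the interaction of vincristine with oxycodone, in which the saline arrays cancel. With limma 0 of 7043 probes passed after adjustment, and 210 had an unadjusted p under 0.05 (2.98%), 97 above 0 and 113 below 0. Of the 80 probes with a small p in the interaction, 27 also had one here, all with the same sign, and of the 63 genes 19 did, 8 above 0 and 11 below. Both quantities share the morphine arrays, on which the 80 probes were chosen in part. The overlap and the common sign therefore follow in part from the same values and do not answer the question. The genes given next were chosen in part on these arrays too. Eef2k had the widest of these differences among the genes described (+2.78, unadjusted p = 0.00233, limma), and Rnf113a2 at +2.51 (unadjusted p = 0.0131, limma), again with values below detection. In vincristine-oxycodone rats Rnf113a2 had 6.68, 7.04, 4.49 and 4.34, against 6.95, 6.95, 6.87 and 6.80 in saline-oxycodone rats, so that both levels also occurred with the other opioid. Slc6a8 differed from its oxycodone interaction by +0.32 (unadjusted p = 0.00419, limma) and Atf4 by -0.36 (unadjusted p = 0.0033, limma), whereas Shisa3 and Gng11 differed by -0.07 and -0.23 (unadjusted p = 0.805 and 0.633, limma).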

How the data were processed

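Total RNA of lumbar dorsal root ganglia from 24 rats, 4 in each of 6 groups, was hybridised to RatRef-12 bead arrays, 1 array per rat. The authors deposited signal intensities on a linear scale that were not normalized between arrays (median per array 48.6 to 72.8), with a detection p-value for every probe and array in steps of 1 over 825. They also deposited log2 values, which equalled the log2 signals after quantile normalization to within 0.00143. The scanner software was not stated.

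The intensities were background corrected, quantile normalized and log2 transformed with neqc of limma 3.58.1 (offset 16) in R 4.3.3, with statmod 1.5.0. Probes were kept where 4 or more arrays had a detection p no higher than 0.0005. Group means were fitted with lmFit and eBayes over 24 arrays and p-values adjusted by Benjamini-Hochberg over the 7043 kept probes. Of all probes, 13787 had 1 gene in the annotation and 8730 none. Current symbols were found by Entrez number for 13747 and by accession for 5, and 35 kept the annotated name. The probe with the highest mean stood for a gene.

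Groups came from the labels. The genes named were the 12 with the smallest p in each direction, the 2 smallest of each of 36 gene lists (1084 entries) and 10 genes known from the study or from earlier results, with further genes chosen by their values. Not all genes of this rule are reported here. The comparison, the lists and the array sets were chosen with earlier results of these data known. An exact permutation of morphine and saline labels within each arm had 4900 regroupings. The fit was tested on simulated data. The alternatives were the 16 arrays alone, other normalizations, filters and variance models, array quality weights, the methods' test, blocks for replicate number and set, and arrays left out. P-values measure the spread between single rats, which without the set block includes the differences between sets. The number of arrays limits the precision.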

Additional observations from a re-analysis of the deposited data

Results flagged for a closer look

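Within groups of 4, a single array stood apart from the other 3 in 13 of 160 groups looked at (8.12%), for 31 genes and 9 lists. For independent normal values chance gives this in about 1 group in 20. That rate does not carry over here. Of the 31 genes, 24 were chosen for a small p on the same arrays, and some had separate high and low levels. Each array apart is given as a value, without an explanation.

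In vincristine-morphine rats, Slc6a8 was at 9.14 on 1 array and between 9.31 and 9.34 on the others, Fam135a at 7.88 against 8.09 to 8.10, and Creld2 at 9.09 against 8.87 to 8.88. In vincristine-saline rats, Clcc1 was at 9.48 on 1 array against 9.01 to 9.09 on the others, and Hspa5 at 12.93 against 12.41 to 12.49.

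In saline-morphine rats, Rnf113a2 was at 7.21 on 1 array against 4.49 to 4.69 on the others, Sc5d at 9.33 against 8.44 to 8.58, Rap1gds1 at 6.12 against 6.79 to 6.89, and Eef2k at 8.92 against 6.65 to 6.99. The mean level of the skeletal muscle genes was 9.61 on 1 saline-morphine array and 6.69 to 6.84 on the others. In saline-saline rats, Rnf113a2 was at 7.72 on 1 array against 6.87 to 6.96, Dynlt3 at 11.6 against 11.72 to 11.74, and Pdgfrl at 7.82 against 7.11 to 7.22. The arrays apart for Sc5d, Rap1gds1 and Eef2k in saline-morphine rats and for Clcc1 and Hspa5 in vincristine-saline rats were those of set 2.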

How the results depend on the processing

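The interaction had 0 probes past an adjusted p of 0.05 under all 29 alternatives, the methods' test among them and the others fitted with limma. The number at an unadjusted p under 0.05, 80 of 7043, became 576 of 22517 with no filter on dim probes (79 of the 80 among them), 346 with array quality weights (64 of the 80), 274 with the set block (80 of the 80) and 132 when the muscle-high arrays were left out (39 of the 80). It lay between 72 and 118 when single arrays were left out, and between 61 and 97 under the other alternatives. For morphine minus saline, the adjusted count of 0 became 1 in vincristine-treated rats with the set block, and in control rats 10 with array quality weights, 2 with the set block and 1 when the muscle-high arrays were left out.

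With the replicate number as a block (replicate block), 0 probes passed after adjustment and 93 had an unadjusted p under 0.05. The replicate number equalled the set number in the oxycodone, saline-morphine and saline-saline groups. It did not in vincristine-morphine rats, and did so only in part in vincristine-saline rats. Over all groups, deviations of same-numbered arrays correlated with a mean r of 0.0447, over 0.1 in 30 of 60 pairs, whereas arrays of a set had a mean r of 0.412. The replicate block changed no adjusted call.

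The 24 genes with the smallest p kept their sign in all 691 alternative values. They were chosen for a small p on the same arrays, so that kept signs follow in large part from the choice. Over the 140 genes followed, 141 of 4027 values changed sign, and 97 of 1042 list medians did. The cause of these changes was not tested. Array weights ran between 0.373 and 2.98.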
